A study of Mus musculus with 35 samples.

Results

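The comparison described here is the step from 18 to 54 µg of NRCWE-045 in mouse lung 24 h after exposure, and it holds 10 of the 35 arrays of the study: 5 arrays at 54 µg against 5 at 18 µg. The arrays were taken by the material and dose that their labels give. NRCWE-045 is one of 3 nanomaterials known by code names (with NRCWE-043 and NRCWE-044). Female C57BL/6 mice of 5 to 7 weeks received 18 or 54 µg of a material per animal in 40 µl as a single instillation into the trachea. The study has 5 control arrays, at 0 µg. The labels do not say what the control mice received, and they name no genetic change. RNA came from randomly taken pieces of frozen lung, so that each array samples a part of the organ. The labels give 5 samples per group without stating that each is a separate mouse, and the p-values below measure only the spread between these samples.

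Each array carried 2 colours. Lung RNA (200 ng) was labelled with Cy5, and a universal mouse reference RNA pooled from 11 mouse cell lines was labelled with Cy3, so every level below is the log2 ratio of lung over reference, on which a difference of 1 is 2-fold. Levels on the 18 µg arrays are given in the order of replicates 1, 12, 13, 25 and 27, and on the 54 µg arrays in the order 8, 14, 28, 32 and 35. Lung markers were high: Sftpc, the surfactant protein C gene of alveolar type 2 cells, stood between 7.63 and 8.71 on all 10 arrays, and Scgb1a1, the secretoglobin of club cells, between 7.52 and 8.60. Between 42.8% and 58.5% of probes were well above background in Cy5 on the NRCWE-045 arrays. The pairwise correlations of the 10 arrays across 25534 features ran from 0.954 to 0.979. In bulk lung RNA, fewer cells of a type and less RNA per cell cannot be told apart.

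Particles that settle in the alveoli are taken up by macrophages and touch epithelial cells, which then release cytokines and chemokines that call in neutrophils and monocytes. Lung tissue itself makes acute phase proteins, a family best known from the liver, among them the serum amyloid A apolipoproteins. Cells that step up secretion enlarge their endoplasmic reticulum folding machinery through the unfolded protein response. These systems are the ones that the gene lists below describe.

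No feature passed the test of the dose step. In limma with Benjamini-Hochberg adjustment over 25534 features, 0 were called at an adjusted p under 0.05 (0% of those tested), and the lowest adjusted p was 0.962. At an unadjusted p under 0.05 there were 974 features (3.81%), of which 654 were higher at 54 µg (2.56%) and 320 were lower (1.25%). Of the 25504 features measured on all 10 arrays, 166 had every 54 µg array above every 18 µg array (0.651%) and 81 had every 54 µg array below (0.318%). The median difference of all features was -0.000529, and 49.9% of features had a difference above 0. A difference of at least 1 was found for 20 features on the higher side (0.0783%) and 3 on the lower side (0.0117%). Every gene difference in the following paragraphs therefore failed the adjusted test, and its 95% interval is for that gene alone. Each count of list members at an unadjusted p under 0.05 below stands against the 2.56% of all features higher and 1.25% lower.

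The count differed between fits. A fit of the 10 NRCWE-045 arrays by themselves called 3 features, all higher at 54 µg: Cyp7b1 and Serpina3m (adjusted p = 0.0166 each, limma) and Lgi2 (0.0329). The 10 arrays lay on 7 slides, and slides 1, 3 and 5 held 1 array of each dose. A fit of those 6 arrays with slide as a block, which changes both the arrays and the design, was added after the values had been seen and leaves 2 residual degrees of freedom. It called 25 features, 20 of them higher. With slide as a fixed or a random block over all 35 arrays the count was 0 again, with lowest adjusted p of 0.633 and 0.457.

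Most acute phase genes had differences on the higher side, and Saa3 and Saa1 had the largest of the genes named. Of 22 genes in the list 19 were tested, 17 had a difference above 0, 9 reached an unadjusted p under 0.05 on the higher side against 0 on the lower side, and the median difference was 0.62. The list's score, the mean level of its tested members on an array, was 1.36, 1.17, 1.38, 1.25 and 1.15 at 18 µg and 2.06, 2.51, 1.92, 2.13 and 1.49 at 54 µg. All 5 arrays at 54 µg lay above all 5 at 18 µg, with replicate 35 nearest to them. The control scores ran from 0.71 to 1.85, and control replicate 29 at 1.85 stood above every 18 µg array. On slides 1, 3 and 5 the score at 54 µg was higher by 0.70, 1.13 and 0.77.

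Saa3, a serum amyloid A gene made in the lung and by macrophages, is induced in inflamed tissue. Its levels were 0.20, -1.49, 0.16, -1.88 and -1.90 at 18 µg and 2.91, 4.65, 1.53, 2.47 and -0.58 at 54 µg. All 54 µg arrays but 1 stood above the highest 18 µg array, and replicate 35 lay within the 18 µg range. The difference was 3.18 (SE 0.99, 95% interval 1.15 to 5.20). Saa1, its relative carried on high-density lipoprotein, stood at 0.23, -0.44, 0.35, -0.60 and -0.43 at 18 µg and at 2.64, 4.25, 1.48, 2.17 and 0.03 at 54 µg, a difference of 2.29 (SE 0.59, 1.09 to 3.49). Again only replicate 35 overlapped with the lower dose. Saa1 and Saa2 are near-identical copies, and a probe for one can take up signal of the other.

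**Figure D1:**
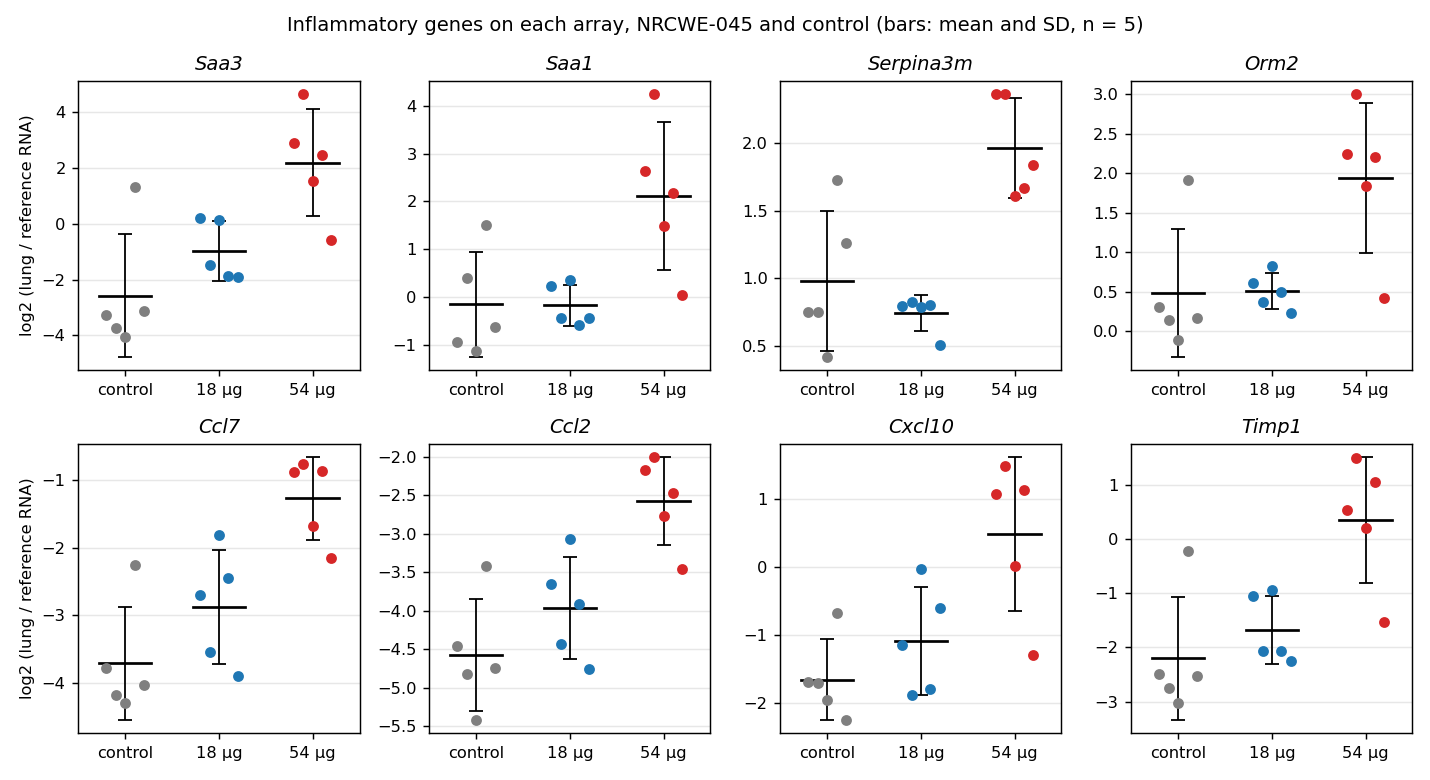
Log2 ratio of lung over reference RNA (y axis) for 8 genes on each array of the control, 18 µg and 54 µg groups (x axis); points are arrays, bars the mean and SD of 5. Saa3 at 54 µg runs from -0.58 to 4.65 against -1.90 to 0.20 at 18 µg, and Serpina3m is the gene of the 8 whose 54 µg arrays (1.61 to 2.36) all lie above the 18 µg arrays (0.50 to 0.82).

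Serpina3m belongs to a cluster of antichymotrypsin-like protease inhibitors and had the lowest unadjusted p of the step. Its levels were 0.80, 0.82, 0.78, 0.80 and 0.50 at 18 µg and 2.36, 2.36, 1.61, 1.67 and 1.84 at 54 µg, a difference of 1.23 (SE 0.28, 0.66 to 1.79). The doses did not overlap, while the controls, from 0.42 to 1.73, spanned much of both. The orosomucoids, plasma glycoproteins that bind drugs and lipids, were higher as well, and for Orm2 the 54 µg arrays had the same order as for Saa3. Orm2 stood at 0.60, 0.37, 0.83, 0.49 and 0.23 at 18 µg and at 2.24, 3.00, 1.84, 2.20 and 0.42 at 54 µg, a difference of 1.44 (SE 0.40). Orm1, a close copy of it, was well above background on 2 of 5 arrays at 18 µg and 5 of 5 at 54 µg. Most of its 18 µg signal was thus near background, which leaves the size of its difference poorly determined: 1.18 here and 3.09 in the scanner's processed signals. Lcn2, the siderophore-binding lipocalin, overlapped widely, from 2.90 to 3.87 against 3.46 to 4.48, and its interval ran from -0.09 to 1.32.

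The CC chemokines, secreted ligands that draw monocytes, eosinophils and lymphocytes, were the list with the highest median. Of 18 genes 15 were tested, 13 had a difference above 0, 8 had an unadjusted p under 0.05 on the higher side against 0 on the lower, and the median difference was 0.77. The scores were 0.12, 0.05, 0.95, 0.10 and 0.08 at 18 µg and 0.87, 1.22, 0.93, 1.38 and 0.37 at 54 µg. Replicate 13 was the one 18 µg array within the 54 µg range, and no member of the list had doses that were fully separate.

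Ccl7 and Ccl2 encode ligands of the monocyte receptor Ccr2. Ccl7 stood at -2.69, -3.54, -1.81, -2.44 and -3.89 at 18 µg and at -0.89, -0.77, -1.68, -0.87 and -2.15 at 54 µg, a difference of 1.60 (SE 0.41, 0.78 to 2.43). Ccl2 stood at -3.65, -4.43, -3.07, -3.91 and -4.75 against -2.18, -2.01, -2.77, -2.47 and -3.46, a difference of 1.39 (SE 0.39, 0.58 to 2.19). For both genes the overlap was between replicate 35 at 54 µg and replicate 13, the highest 18 µg array. The eotaxins Ccl24 and Ccl11 act on the eosinophil receptor Ccr3. Ccl24 was at -2.02, -2.87, 0.54, -2.54 and -3.03 at 18 µg and at -0.58, 1.1, -0.26, 1.30 and -1.96 at 54 µg, a difference of 1.91 (SE 0.66, 0.56 to 3.25), which was 2.54 without replicate 13. Ccl11 differed by 1.01 (SE 0.37, 0.26 to 1.75), from 0.23 to 1.69 against 0.98 to 2.85.

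Among the CXC chemokines the largest difference was that of Cxcl10, the interferon-induced ligand of Cxcr3 on T and NK cells. It stood at -1.14, -1.88, -0.02, -1.79 and -0.59 at 18 µg and at 1.08, 1.49, 0.03, 1.14 and -1.29 at 54 µg, a difference of 1.57 (SE 0.47, 0.62 to 2.52). Replicate 35 lay among the 18 µg arrays and replicate 28 just above them. It was the 1 of 13 tested members with an unadjusted p under 0.05. In the list, 10 members had a difference above 0 and the median was 0.19. The neutrophil-drawing ligands gave smaller values. Cxcl1 differed by 0.57 (-0.25 to 1.38), by 0.96 without 18 µg replicate 13 and by 0.35 without 18 µg replicate 27. Cxcl5 differed by 0.29 (-0.87 to 1.45), where 18 µg replicate 13 at 0.72 was above every 54 µg array. Cxcl15, a chemokine of lung epithelium, differed by 0.40 (-0.07 to 0.86) and by -0.04 in the scanner's processed signals.

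Of the cytokines of the IL-1, IL-6 and TNF families 21 were tested, with a median difference of 0.10, 5 at an unadjusted p under 0.05 on the higher side and 0 on the lower. Il1b, the cytokine released by inflammasome-activated macrophages, stood at 1.27, 0.62, 2.11, 0.73 and 1.22 at 18 µg and at 2.24, 2.00, 1.5, 2.67 and 2.13 at 54 µg, a difference of 0.92 (SE 0.29, 0.33 to 1.51). Replicate 13 at 18 µg lay among the 54 µg arrays, above replicates 14 and 28. Il33, an alarmin stored in the nuclei of epithelial cells, differed by 0.91 (SE 0.28, 0.34 to 1.48), from 1.26 to 2.91 against 2.06 to 3.45. The inhibitors in the list were on the higher side as well. Il1r2, the decoy receptor for IL-1, ran from 0.23 to 0.42 at 18 µg and from 0.65 to 1.92 at 54 µg without overlap, a difference of 0.93 (SE 0.33, 0.27 to 1.59). Il18bp, which binds and blocks IL-18, differed by 0.62 (SE 0.20, 0.21 to 1.03). Il6 was well above background on 2 of 5 arrays at 18 µg and 5 of 5 at 54 µg, and its difference ran from 0.38 to 2.08 over the alternative settings, so that its size is poorly determined.

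The NF-kB feedback genes and targets had a median difference of 0.18 over 20 tested members. On the higher side 1 had an unadjusted p under 0.05, against 2.56% of all features. Vcam1, the adhesion molecule that holds leukocytes to endothelium, differed by 0.32 (0.02 to 0.62), Nfkb2, which encodes the NF-kB subunit precursor p100, by 0.32 (-0.01 to 0.65) and Nfkbie, an inhibitor of NF-kB, by 0.30 (-0.07 to 0.67). The list's score at 18 µg was 0.50 on replicate 13 and 0.01 to 0.13 on the other 4 arrays, against 0.22 to 0.41 at 54 µg.

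In the complement list, 14 of 17 tested members had a difference above 0, and the median was 0.09. An unadjusted p under 0.05 was reached by 3 on the higher side, against 2.56% of all features. Cfb, the protease of the alternative pathway convertase, stood at 3.77, 4.09, 4.20, 3.97 and 4.61 at 18 µg and at 4.71, 5.03, 4.71, 4.83 and 4.45 at 54 µg, a difference of 0.62 (SE 0.17, 0.28 to 0.96). Replicate 27 at 18 µg and replicate 35 at 54 µg made the overlap. C3, the central component that the convertases cleave, differed by 0.74 (SE 0.27, 0.18 to 1.30), and a second probe gave 0.68. Cfi, the protease that inactivates C3b, differed by 0.40 (0.05 to 0.75). The score difference was 0.22 on slide 1, 0.08 on slide 3 and -0.20 on slide 5.

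Interferon-induced genes lay mostly on the higher side, with 1 array at the lower dose standing apart. Of 30 tested, 27 had a difference above 0, 10 had an unadjusted p under 0.05 on the higher side and 0 on the lower, and the median was 0.34. The scores were 0.24, 0.28, 0.45, 0.28 and 1.01 at 18 µg and 0.86, 1.09, 0.66, 0.95 and 0.46 at 54 µg. Replicate 27 at 18 µg was higher than 4 of the 5 arrays at 54 µg, and on its slide, slide 5, the score difference was -0.35 against 0.62 and 0.64 on slides 1 and 3. Ifit1, which binds RNA lacking the host's cap methylation, stood at -0.11, -0.30, -0.26, -0.50 and -0.01 at 18 µg and at 0.91, 0.76, 0.38, 0.64 and -0.41 at 54 µg, a difference of 0.69 (SE 0.23, 0.22 to 1.17). Irf7, the transcription factor that amplifies interferon production, differed by 0.70 (SE 0.24, 0.21 to 1.19). Ifit2 differed by 0.49 (0.10 to 0.89) and the nucleotide kinase Cmpk2 by 0.50 (0.09 to 0.92), where another probe gave 0.39. The guanylate-binding proteins, induced mainly by interferon gamma, had differences near 0: Gbp2 at 0.10, Gbp3 at 0.09 and Gbp5 at -0.04, named here after their values had been seen. Antigen presentation genes had medians of 0.000569 for MHC class I (14 tested) and 0.04 for class II (9 tested), and 18 µg replicate 27 had the highest score of the 10 arrays in both, 1.94 and 3.60.

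**Figure D2:**
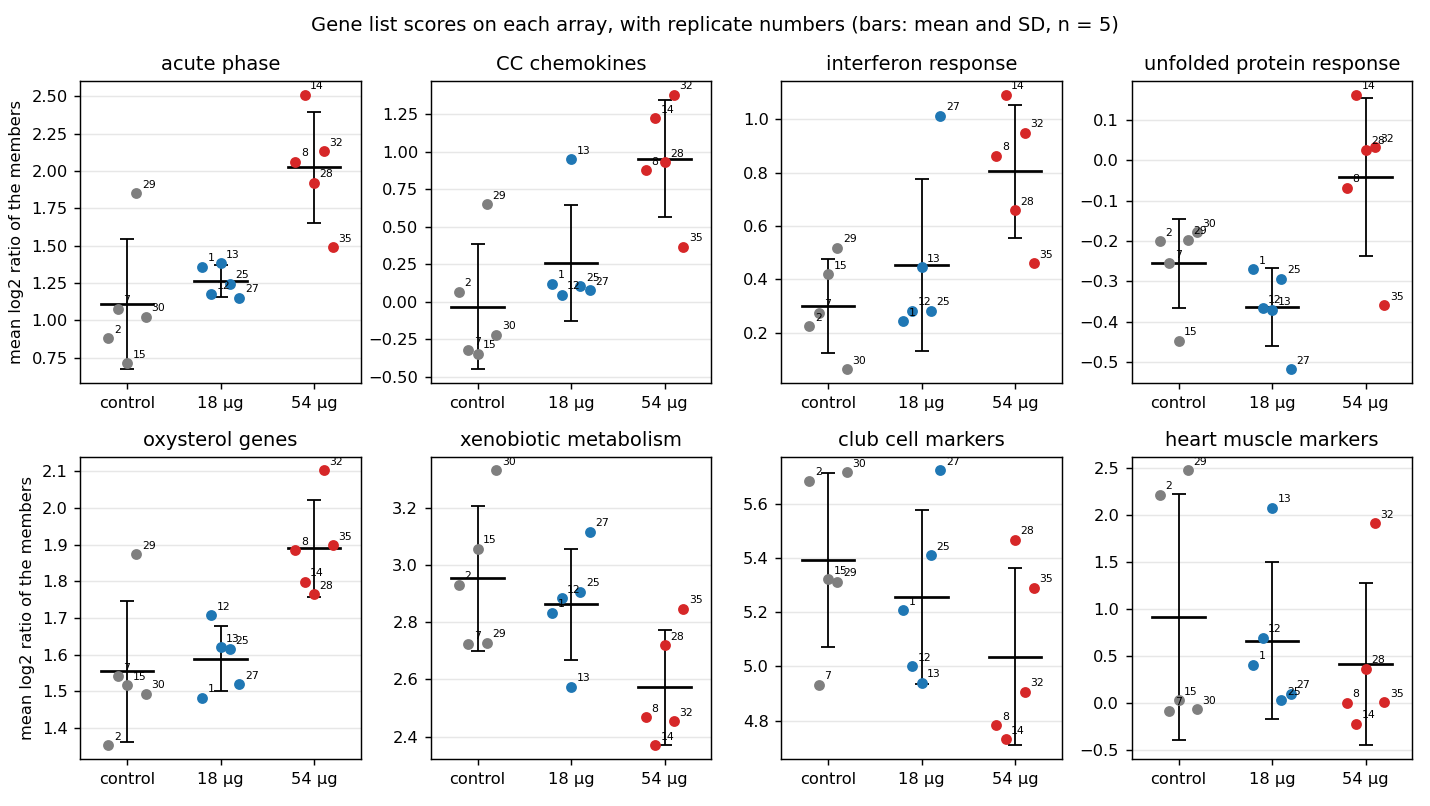
Mean log2 ratio of the tested members of 8 gene lists (y axis) on each array of the control, 18 µg and 54 µg groups (x axis), with replicate numbers; bars are the mean and SD of 5 arrays. The acute phase and oxysterol scores at 54 µg all lie above those at 18 µg, and 18 µg replicate 27 (interferon, 1.01) and replicate 13 (CC chemokines, 0.95; heart muscle, 2.08) stand apart from their group.

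Genes of alternative macrophage activation had a median difference of 0.20 over 13 tested, with 12 above 0 and 2 at an unadjusted p under 0.05. Arg1, the arginase of wound-healing macrophages, stood at 0.28, 0.68, 0.88, 0.55 and 0.29 at 18 µg and at 1.09, 2.36, 1.44, 2.09 and 0.86 at 54 µg, a difference of 1.03 (SE 0.35, 0.33 to 1.74). The overlap was between replicate 35 at 0.86 and replicate 13 at 0.88. Tgfbi, a matrix protein induced by TGF-beta, ran from 3.41 to 3.73 at 18 µg and from 3.77 to 4.53 at 54 µg without overlap, a difference of 0.52 (SE 0.18, 0.16 to 0.88). Clec10a, a galactose-binding lectin of macrophages and dendritic cells, differed by 0.48 (-0.03 to 1.00).

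Genes that handle oxysterols, hydroxylated cholesterols that steer B cells and dendritic cells, included 2 of 6 tested with every 54 µg array above every 18 µg array. Of all features 0.651% had this order. Cyp7b1, the hydroxylase that converts oxysterols, stood at 2.43, 2.82, 2.44, 2.67 and 2.39 at 18 µg and at 3.81, 3.89, 3.51, 3.70 and 3.23 at 54 µg, a difference of 1.08 (SE 0.28, 0.51 to 1.64). Ch25h, which hydroxylates the side chain of cholesterol, stood at 2.36, 1.88, 2.63, 2.14 and 1.48 against 2.69, 2.90, 2.72, 3.30 and 2.96, a difference of 0.82 (SE 0.27, 0.27 to 1.36). Every 54 µg array was above every 18 µg array for both enzymes, while Ch25h replicates 8 and 28 at 54 µg were close to replicate 13 at 18 µg. Gpr183, the receptor for the product of the pair, differed by 0.35 (0.03 to 0.68), but by -0.0003 with the Cy5 channel alone. Abca1, which exports cholesterol from cells, was on the other side, at 1.11, 1.91, 1.31, 1.46 and 1.81 against 1.41, 0.73, 0.90, 1.18 and 1.28, a difference of -0.42 (SE 0.19, -0.80 to -0.04). Over the 6 tested members the median was 0.24. Against control the list's median was -0.18 at 18 µg and 0.06 at 54 µg. The control scores, from 1.35 to 1.87, reached into the 54 µg range of 1.76 to 2.10.

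The unfolded protein response had the largest share of members at an unadjusted p under 0.05 among the response lists with 10 or more tested members after the CC chemokines: 11 of 22 on the higher side and 0 on the lower, against 2.56% and 1.25% of all features. Of the 22 tested, 20 had a difference above 0 and the median was 0.29. The 2 members below 0 were Herpud1 (-0.23) and Trib3 (-0.16). Its chaperone genes are known targets of the transcription factors ATF6 and XBP1 through the ER stress response element, in which a CCAAT box and a CCACG box lie a fixed distance apart. The motif CCAAT, then 9 bases of any kind, then CCACG, searched on both strands in the 250 bases upstream of each start in the RefSeq promoters of build GRCm38.p6, was found in 37 of 32851 promoters (0.113%). Of 20 tested list members with a promoter entry, 8 held it: Hspa5, Hsp90b1, Calr, Canx, Pdia6, Dnajc3, Creld2 and Syvn1. A match is a description of the letters, and the promoters of Calr, Pdia6 and Hspa5 are shown as examples of how the motif lies, chosen after their values had been seen. The capitals mark the motif. The other 5 genes that held it differed by 0.50 (Hsp90b1), 0.48 (Creld2), 0.25 (Syvn1), 0.20 (Dnajc3) and 0.19 (Canx). Members whose entry lacked it were also above 0 except Herpud1 and Trib3, among them Dnajb11 (0.38), Pdia4 (0.36) and Xbp1 (0.26). The list holds known targets of the element, so its share with the motif is no test. Hspa5, which encodes the chaperone BiP, is shown in addition to the genes named by rule. The Calr stretch lies on the minus strand at chr8:84846932-84847181 with the motif on the strand opposite to the gene, the Pdia6 stretch on the plus strand at chr12:17266339-17266588 and the Hspa5 stretch on the plus strand at chr2:34771840-34772089.
Calr: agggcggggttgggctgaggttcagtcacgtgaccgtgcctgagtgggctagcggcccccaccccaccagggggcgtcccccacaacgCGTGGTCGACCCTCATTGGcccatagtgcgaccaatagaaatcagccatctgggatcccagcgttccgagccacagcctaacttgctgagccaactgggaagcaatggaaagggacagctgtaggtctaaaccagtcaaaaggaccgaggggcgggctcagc
Pdia6: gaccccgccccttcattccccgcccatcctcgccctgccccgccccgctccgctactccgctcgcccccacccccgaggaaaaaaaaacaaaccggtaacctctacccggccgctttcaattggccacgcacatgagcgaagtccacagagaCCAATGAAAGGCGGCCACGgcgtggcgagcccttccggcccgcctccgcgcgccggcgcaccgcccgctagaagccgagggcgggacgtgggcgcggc
Hspa5: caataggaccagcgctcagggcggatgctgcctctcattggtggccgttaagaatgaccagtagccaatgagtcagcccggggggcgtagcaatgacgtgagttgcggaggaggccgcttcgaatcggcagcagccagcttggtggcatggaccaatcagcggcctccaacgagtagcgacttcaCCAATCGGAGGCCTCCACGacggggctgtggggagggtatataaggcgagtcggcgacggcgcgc

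Calr, the calcium-binding lectin chaperone calreticulin, stood at 0.20, -0.18, -0.02, 0.19 and -0.28 at 18 µg and at 0.38, 0.66, 0.45, 0.81 and 0.30 at 54 µg, a difference of 0.54 (SE 0.15, 0.24 to 0.84). Its doses did not overlap. Pdia6, a disulfide isomerase, was at 0.23, -0.03, 0.24, 0.08 and -0.36 against 0.67, 1.02, 0.42, 0.59 and 0.07, a difference of 0.52 (SE 0.15, 0.22 to 0.82), and a second probe gave 0.53. Hspa5 was at -0.60, -0.63, -0.60, -0.58 and -0.99 against 0.07, 0.56, 0.18, -0.28 and -0.81, a difference of 0.62 (SE 0.22, 0.17 to 1.08). Replicate 35 lay within the 18 µg range for Pdia6 and Hspa5. Sdf2l1, a resident of the endoplasmic reticulum that works with BiP and whose entry lacked the motif, stood at -1.14, -1.05, -0.75, -1.1 and -1.74 against -0.41, 0.10, -0.24, 0.34 and -0.97, a difference of 0.92 (SE 0.22, 0.48 to 1.36). Manf, a secreted stress-induced protein, ran from -1.04 to -0.55 against -0.42 to 0.27 without overlap, a difference of 0.59 (SE 0.16, 0.26 to 0.92). The list's score was -0.27, -0.37, -0.37, -0.29 and -0.52 at 18 µg and -0.07, 0.16, 0.03, 0.03 and -0.36 at 54 µg, with replicate 35 again among the 18 µg arrays. The score was higher at 54 µg by 0.20, 0.53 and 0.55 on slides 1, 3 and 5.

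Heat shock chaperones of the cytosol and mitochondria had a difference above 0 for 15 of 15 tested members, with a median of 0.21. Of the 15, 1 had an unadjusted p under 0.05, against 2.56% of all features on the higher side. That member was Hspd1, the mitochondrial chaperonin, with 0.27 (0.00256 to 0.53). Hspa1a, the inducible heat shock protein of the cytosol, differed by 0.50 (-0.08 to 1.08), from 0.57 to 1.59 against 1.04 to 2.56. Its difference was 0.26 without 54 µg replicate 14 and 1.08 in the fit of the 6 arrays on shared slides. The list's score overlapped, at 0.05, 0.27, 0.00, 0.38 and 0.11 against 0.40, 0.72, 0.57, 0.07 and 0.13. Cholesterol synthesis genes had a median of 0.21 over 23 tested, with 21 above 0 and 3 at an unadjusted p under 0.05. Their scores were -0.24, -0.18, -0.07, -0.38 and -0.30 at 18 µg and -0.07, -0.01, -0.08, -0.06 and -0.00406 at 54 µg. The 54 µg arrays lay close together at the upper end, and 18 µg replicate 13 reached them. Idi1, an isomerase early in the pathway, differed by 0.31 (0.05 to 0.58), Srebf2, the transcription factor of the pathway, by 0.33 (0.01 to 0.65) and Hsd17b7, a late enzyme, by 0.34 (0.01 to 0.67).

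Matrix and protease genes had a median of 0.14 over 25 tested, and 5 had an unadjusted p under 0.05, with only Mmp2 on the lower side. Timp1, the secreted inhibitor of matrix metalloproteinases, stood at -1.06, -2.06, -0.94, -2.07 and -2.25 at 18 µg and at 0.54, 1.49, 0.21, 1.06 and -1.53 at 54 µg, a difference of 2.03 (SE 0.57, 0.88 to 3.18). Replicate 35 was the 54 µg array within the 18 µg range. Mmp3, stromelysin, differed by 0.60 (SE 0.21, 0.17 to 1.03). Mmp2, a gelatinase of fibroblasts, was on the lower side, at -0.33, -0.29, -0.07, -0.03 and -0.45 against -0.72, -1.1, -0.83, -0.54 and -0.35, a difference of -0.47 (SE 0.17, -0.81 to -0.13).

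The proliferation list had a median of -0.02 over 22 tested, and 4 members on the higher side at an unadjusted p under 0.05. Ccnd1, the cyclin of early G1, differed by 0.36 (SE 0.12, 0.12 to 0.59), and the replication helicase subunits Mcm2, Mcm6 and Mcm5 by 0.50, 0.42 and 0.34 (SE 0.20, 0.19 and 0.16). The list's score did not separate the doses, from -2.56 to -2.11 against -2.70 to -2.18. In the airway list of ion transport and mucous genes, 9 of 14 tested had a difference above 0 and the median was 0.05. The differences ran from -0.99 for Clca1, and the list's score differed by -0.43, -0.95 and 1.25 on slides 1, 3 and 5. Fxyd4, an ion transport regulator, differed by 1.46 (SE 0.59, 0.27 to 2.65) and Slc26a4, the anion exchanger pendrin, by 1.37 (SE 0.74, -0.14 to 2.87). Slc26a4 was at 4.31, 3.34, 6.63, 4.53 and 2.20 against 5.54, 5.49, 5.98, 6.72 and 4.11, and the high 18 µg value was that of replicate 13. Its difference on slide 3, which held replicate 13, was -1.14, against 1.23 and 3.78 on slides 1 and 5.

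**Figure D3:**
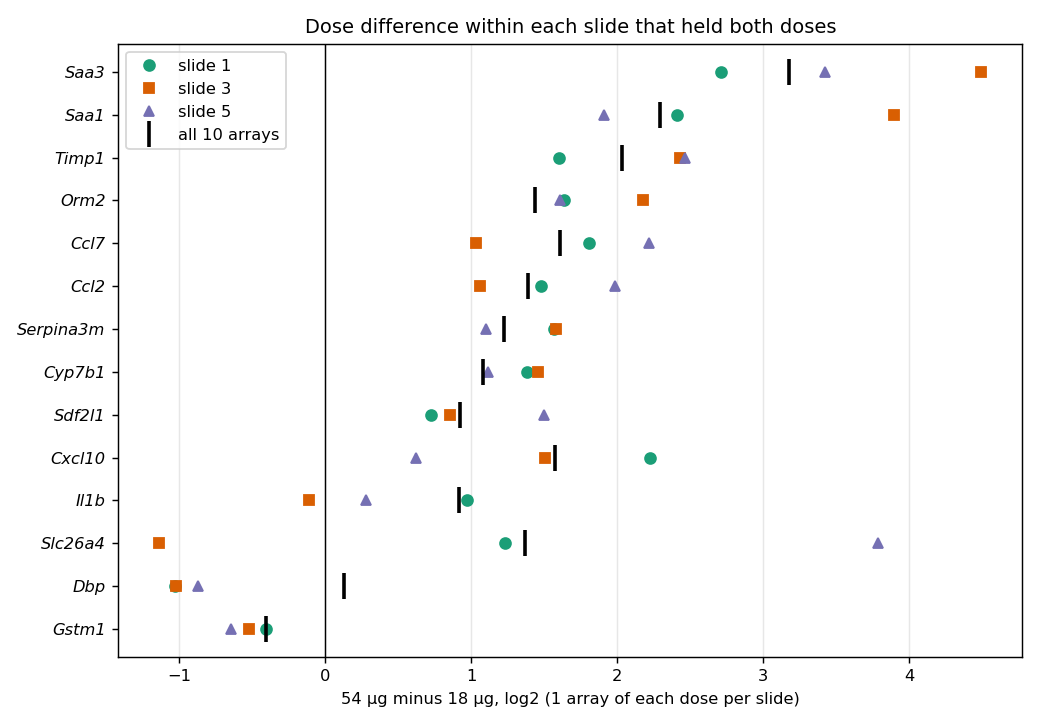
Difference of the 54 µg array from the 18 µg array (x axis, log2) on each of the 3 slides that held both doses, for 14 genes (y axis); black ticks are the differences over all 10 arrays. Saa3 (2.71, 4.49 and 3.42) and the other acute phase genes are on the higher side on all 3 slides, Slc26a4 and Il1b change sides, and Dbp is at -1.03, -1.03 and -0.87 within slides against 0.13 over all arrays.

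Genes of xenobiotic metabolism lay on the lower side. All 20 tested members had a difference below 0, 5 had an unadjusted p under 0.05 on the lower side and 0 on the higher, and the median was -0.22. The scores were 2.83, 2.88, 2.57, 2.91 and 3.12 at 18 µg and 2.47, 2.37, 2.72, 2.45 and 2.85 at 54 µg, which overlapped through 18 µg replicate 13 and 54 µg replicates 28 and 35. Median centring of the arrays shifted the median of all features by 0.12 and that of this list to -0.02. Cyp1b1, a hydrocarbon-activating cytochrome induced through the aryl hydrocarbon receptor, stood at -2.16, -2.17, -2.18, -2.20 and -2.07 at 18 µg and at -2.44, -2.47, -2.68, -2.71 and -2.44 at 54 µg, a difference of -0.39 (SE 0.14, -0.67 to -0.11), without overlap. Cyp1a1 is induced through the same receptor. It was well above background on 3 of 5 arrays at 18 µg and 0 of 5 at 54 µg. A bound for its Cy5 signal at 18 µg was estimated at 1.20-fold that at 54 µg. The estimate was taken per channel after between-array scaling, and is open to dye bias. With 1 array left out the log2 difference ran from -0.29 to -0.04. Its size also varied with the processing, so the bound does not hold as a minimum and no minimum fold is established.

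Ephx1, the microsomal epoxide hydrolase, differed by -0.32 (-0.62 to -0.03) and the retinal dehydrogenase Aldh1a1 by -0.46 (-0.92 to -0.01). Beside these genes, the club cell markers, of which 8 were tested and some of which are also in the xenobiotic list, had scores from 4.94 to 5.72 at 18 µg and from 4.73 to 5.47 at 54 µg, with a median difference of -0.17 that was 0.14 under median centring. The part of a change in club cell RNA in the differences was not tested. Scgb1a1 differed by -0.14 (-0.54 to 0.26) and Cbr2, a carbonyl reductase of club cells, by -0.33 (-0.77 to 0.11), and both differences turned to 0.19 and 0.03 under median centring. Ciliated cell markers were below 0 for 12 of 13 tested, with a median of -0.19. Tekt1, a protein of ciliary microtubules, differed by -0.42 (-1.0 to 0.15).

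The NRF2 targets, the antioxidant and glutathione genes, had a median of 0.04 over 20 tested. The 1 member with an unadjusted p under 0.05, on the lower side (1.25% of all features), was Gstm1. That glutathione transferase stood at 1.01, 1.12, 0.85, 1.07 and 1.15 at 18 µg and at 0.60, 0.33, 0.50, 0.51 and 1.23 at 54 µg, a difference of -0.40 (SE 0.18, -0.78 to -0.03). Replicate 35 lay above all 18 µg arrays and the other 4 arrays at 54 µg below them. Gsta2 differed by -0.67 (-1.42 to 0.07). Hmox1, heme oxygenase, differed by -0.06 (SE 0.32, -0.70 to 0.58), and its sign turned under 5 alternatives. Metallothioneins and zinc transporters gave a median of 0.05 over 9 tested, with Mt2 at 0.57 (-0.21 to 1.34) and the zinc importer Slc39a14 at 0.29 (-0.02 to 0.60). The p53 targets were mixed, with 9 of 19 tested above 0 and 10 below. Their median was -0.06, and 0.18 under median centring, and the scores of the doses overlapped. On the lower side 3 had an unadjusted p under 0.05, against 1.25% of all features. They were Sesn2, a stress-induced inhibitor of growth signalling, at -0.52 (-0.91 to -0.14), Trp53inp1 at -0.46 (-0.81 to -0.11) and the pro-apoptotic Bmf at -0.32 (-0.63 to -0.01).

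The immediate early genes had a median of 0.14 over 21 tested, and 2 on the higher side at an unadjusted p under 0.05 (2.56% of all features). Atf3, a stress-induced transcription factor, stood at -0.82, -1.02, -0.27, -0.62 and -0.51 against -0.21, -0.20, -0.67, -0.24 and -0.10, a difference of 0.37 (SE 0.16, 0.05 to 0.69), and Maff, a small Maf protein, differed by 0.34 (0.05 to 0.63). Egr1 differed by 0.65 (-0.04 to 1.34). The glucocorticoid-induced genes, which respond to the adrenal stress hormone, had 11 of 13 tested below 0 and a median of -0.37, and 1 reached an unadjusted p under 0.05, on the lower side. It was Klf9, a Krüppel-like transcription factor, at -0.37 (-0.73 to -0.02). The list's scores overlapped, at 2.04, 2.38, 1.56, 2.16 and 1.85 at 18 µg and 1.79, 1.99, 2.17, 1.17 and 1.71 at 54 µg. On slides 1, 3 and 5 the score differed by -0.25, 0.43 and 0.32, and the list's median was 0.13 in the fit of the 6 arrays on shared slides.

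Clock genes did not separate the doses. Dbp, an output gene of the clock, differed by 0.13 (-1.15 to 1.41) over all arrays and by -0.97 in the fit of the 6 arrays on shared slides (adjusted p = 0.0127, limma). Arntl, which encodes the clock activator BMAL1, differed by -0.28 (-1.08 to 0.52) and by 0.14 in that fit. Controls spanned -2.67 to 2.71 for Dbp, more than either dose.

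**Figure D4:**
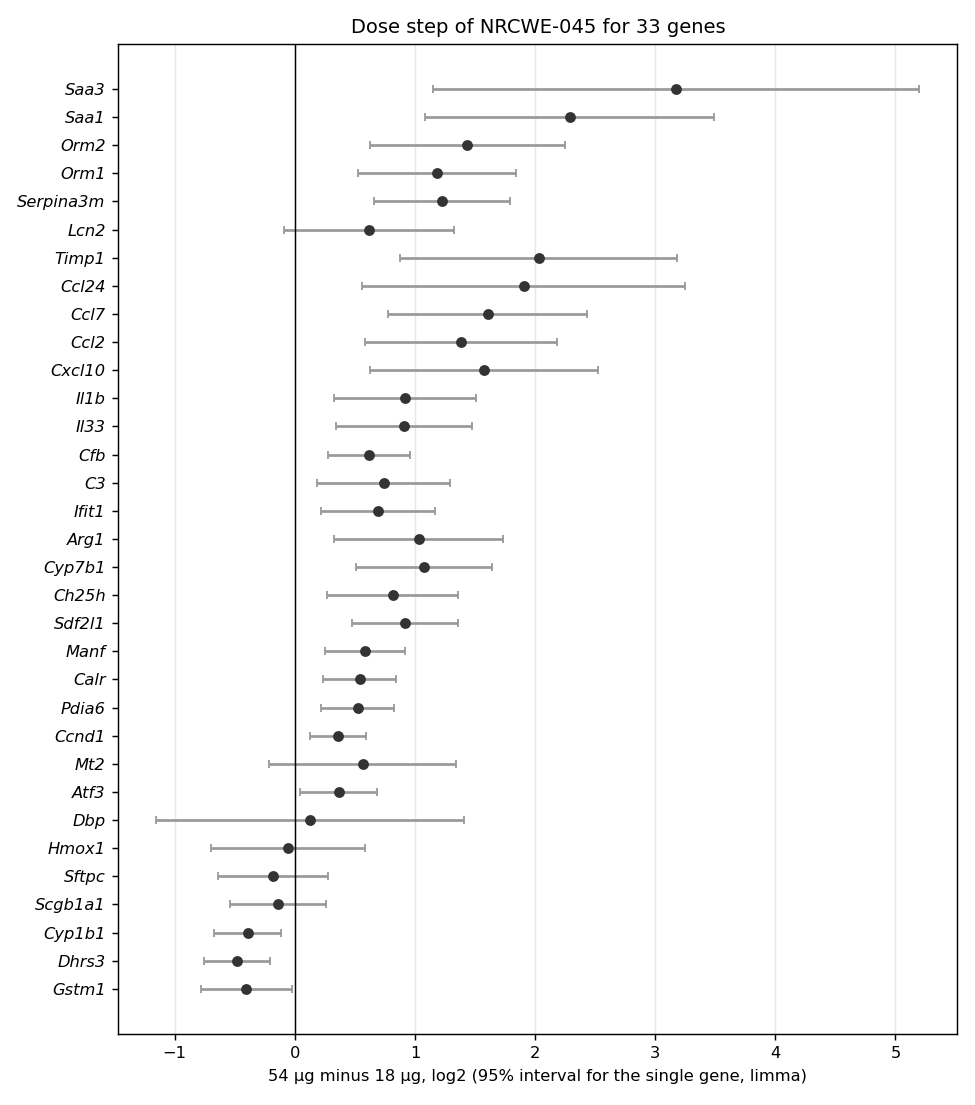
Difference between 54 and 18 µg (x axis, log2) for 33 genes (y axis), with the 95% interval of each gene from the limma fit of all 35 arrays. Intervals of the acute phase, chemokine and chaperone genes lie above 0 apart from Lcn2, those of Cyp1b1, Dhrs3 and Gstm1 below, and no difference passed adjustment over 25534 features.

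The remaining genes of lowest unadjusted p with separate doses were spread over functions. On the higher side, after Serpina3m, they were Ptger1, a prostaglandin E receptor (0.62, SE 0.15), Trmt61a, a tRNA methyltransferase (0.62, SE 0.15), Lgi2 (0.91, SE 0.23), Eif1a, a translation initiation factor (0.33, SE 0.09), Cyp7b1, Plcxd2 (0.47, SE 0.12), Mlec, a sugar-binding protein of the endoplasmic reticulum (0.48, SE 0.13), P2ry6, a receptor for UDP (0.44, SE 0.12), and Gzmk, a granzyme. Ptger1 stood at 0.76, 0.81, 0.73, 1.21 and 0.62 at 18 µg and at 1.5, 1.26, 1.37, 1.69 and 1.41 at 54 µg. Lgi2 stood at 1.54, 1.14, 1.42, 1.52 and 1.58 against 2.24, 2.46, 2.55, 2.52 and 1.97. Gzmk was well above background on 2 of 5 arrays at 18 µg and 3 of 5 at 54 µg, and its controls (-0.25 to 0.17) reached both doses. Its difference was 0.35 here, 0.0045 with Cy5 alone and 1.0 in processed signals, so that its size is poorly determined.

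On the lower side they were Dhrs3, a reductase of retinaldehyde (-0.48, SE 0.14), the unnamed transcript 2410006H16Rik (-0.36, SE 0.11), Cyp1b1, Tns3, a focal adhesion protein (-0.25, SE 0.09), Kif13b, a kinesin (-0.24, SE 0.09), Igsf10 (-0.29, SE 0.11), Scara3, a scavenger receptor (-0.42, SE 0.17), Arrdc2 (-0.35, SE 0.15), the phospholipase gene Pla2g4b (-0.27, SE 0.11) and Pmm1, a phosphomannomutase (-0.20, SE 0.08). Dhrs3 stood at 1.77, 1.68, 1.57, 1.82 and 1.82 at 18 µg and at 1.19, 1.16, 1.25, 1.17 and 1.48 at 54 µg. Under median centring Tns3 and Pmm1 changed sign, to 0.01 and 0.08.

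Medians of the leukocyte marker lists ran from -0.01 to 0.23. Neutrophil markers had the highest, 0.23, with 4 of 22 tested on the higher side at an unadjusted p under 0.05. The largest difference in that list was 0.93 for Il1r2, described above with the cytokines, whose doses did not overlap. Clec4d, a lectin of myeloid cells (0.61, SE 0.23), and Cxcr2, the chemokine receptor (0.50, SE 0.22), were also among the 4. The neutrophil marker scores were 1.21, 0.99, 1.34, 1.45 and 1.23 at 18 µg and 1.13, 1.34, 1.59, 2.01 and 1.44 at 54 µg. Monocyte and interstitial macrophage markers had 2 of 18, Plac8 (0.62, SE 0.25) and Ccr2 (0.50, SE 0.24), with a median of 0.12. Alveolar macrophage markers had a median of -0.01 over 17 tested, and Pparg, which encodes their lineage factor, differed by -0.25 (-0.49 to -0.00451). T and NK cell markers had a median of 0.09 (23 tested; -0.14 on shared slides), endothelial markers 0.07 (18), alveolar type 1 markers -0.06 (10; 0.17 under median centring), and fibroblast and smooth muscle markers 0.04 (15). Alveolar type 2 markers had 11 of 14 tested above 0 and a median of 0.08, which was 0.35 under median centring. Of these markers, Sftpc differed by -0.18 (-0.64 to 0.27) and Lamp3, a lysosomal protein of lamellar bodies, by 0.25 (-0.02 to 0.52). The part of cell numbers in the differences of secreted and interferon-induced genes was not tested.

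Heart muscle RNA varied between arrays within both doses and within the controls. Control replicates 2 and 29 had heart marker scores of 2.21 and 2.47, against -0.08 to 0.03 on the other controls. The score of 17 tested heart markers was 0.41, 0.70, 2.08, 0.03 and 0.10 at 18 µg and 0.00, -0.22, 0.37, 1.91 and 0.01 at 54 µg, and 15 of the 17 had a difference below 0. Replicate 13 at 18 µg, high for heart markers, was also the 18 µg array with the highest acute phase, CC chemokine and NF-kB scores, and replicate 32 at 54 µg had the highest CC chemokine score. Without both arrays the median difference was 0.55 for the acute phase genes, 0.69 for CC chemokines, 0.32 for interferon genes, 0.27 for the unfolded protein response and -0.26 for xenobiotic metabolism, and the count of called features stayed at 0. Nppa, the atrial peptide gene, stood at 2.56 on replicate 13 and between 0.24 and 0.73 on the other 9 arrays. The adipose markers had 11 of 12 tested below 0 and a median of -0.20. Cfd, which encodes the adipocyte protease adipsin and is also in the complement list, differed by -1.21. It ran from 0.37 to 4.12 against -0.25 to 3.15, with 2 of 5 arrays at 54 µg well above background.

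Each dose was also set against the 5 controls. At 18 µg 0 features were called (0%, limma, 710 at an unadjusted p under 0.05, 2.78%). At 54 µg 83 were called (0.325%, limma), 74 higher (0.29%) and 9 lower (0.0352%). Both comparisons use the same controls. Saa3 was higher than control by 1.59 at 18 µg and by 4.77 at 54 µg (adjusted p = 0.0324, limma), Timp1 by 0.53 and 2.56 (0.0379), Ccl7 by 0.83 and 2.43 (0.0138), Ccl2 by 0.61 and 2.00 (0.0197) and Cfb by 0.40 and 1.02 (0.0138). For the acute phase list the median was 0.02 at 18 µg and 0.86 at 54 µg, for CC chemokines 0.25 and 1.07, and for the unfolded protein response -0.07 and 0.25. At 54 µg against control, 1 of 19 acute phase members and 3 of 15 CC chemokines were called higher. Of the 22 unfolded protein response members 0 were called higher and 1 was called lower. The count of 83 fell to 0 without 54 µg replicate 8 or without control replicate 2, 7 or 30, and was 221 without control replicate 29.

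The same dose step was larger in counts for the other materials. NRCWE-043 had 295 called features (1.16%) and NRCWE-044 had 1664 (6.52%) against 0 for NRCWE-045 (limma, 5 arrays a dose). The test of the difference between steps called 0 features against NRCWE-043 (915 at an unadjusted p under 0.05, 3.58%) and 0 against NRCWE-044 (1142, 4.47%, lowest adjusted p 0.130), so the steps were not shown to differ for any gene. Saa3 differed by 3.18 in NRCWE-045, 3.84 in NRCWE-043 and 5.71 in NRCWE-044, and the interval of the difference from NRCWE-044 ran from -5.39 to 0.33. For Ccl7 the steps were 1.60, 1.57 and 3.09, with an interval from -2.66 to -0.32 against NRCWE-044, and from -1.14 to 1.21 against NRCWE-043. For Cfb they were 0.62, 0.92 and 1.63, with an interval from -1.49 to -0.53 against NRCWE-044. Hspa1a was on opposite sides, at 0.50, 0.62 and -0.61, with an interval from 0.28 to 1.92 against NRCWE-044, and the first of these was 0.26 without 54 µg replicate 14. The 3 materials at the same 2 doses give 3 pairs of steps, of which the 2 that involve NRCWE-045 were compared.

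**Figure D5:**
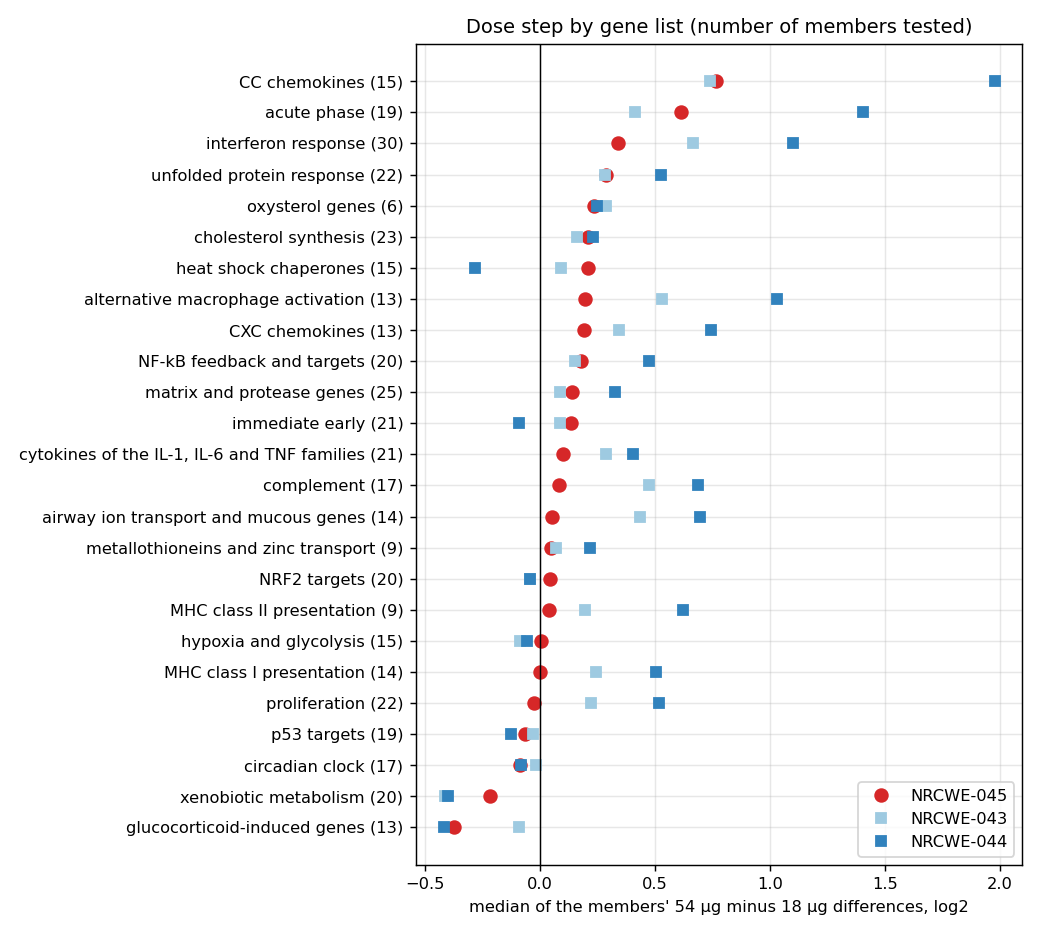
Median over the tested members of each response list (y axis, number tested in brackets) of the difference between 54 and 18 µg (x axis, log2) for NRCWE-045, NRCWE-043 and NRCWE-044, 5 arrays a dose. CC chemokines lie at 0.77 for NRCWE-045, 0.74 for NRCWE-043 and 1.98 for NRCWE-044, heat shock chaperones at 0.21, 0.09 and -0.28, and xenobiotic metabolism below 0 for all 3; no list was tested.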

How the data were processed

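Lung RNA in Cy5 was hybridised against a universal mouse reference in Cy3 on 35 arrays. Each array file, as deposited, holds spot and local background intensity from Agilent Feature Extraction 11.0.1.1, per the file headers, and the authors' series table holds log2 ratios (Cy5 over Cy3) with their normalization not stated. The median spot and background intensities were corrected with normexp (offset 50), normalized by loess within each array with control spots at weight 0, and averaged per probe. Probes had to exceed background clearly (the scanner's mark, Cy5) on 3 or more of 5 arrays in any group, and the brightest probe stood for a gene, which left 25534 features, 15621 of them with a symbol. Groups were fitted over all 35 arrays, which share 1 estimate of the spread, in limma 3.58.1 (R 4.3.3) with lmFit and eBayes, and p-values were adjusted over all features by Benjamini-Hochberg, with calls under 0.05. The number of arrays limits the precision. The code was tested on simulated data.

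The members and the 44 gene lists were chosen with earlier results of these data known. Named genes were, by rule, up to 10 features on each side with the lowest unadjusted p among those whose doses did not overlap and up to 4 members of each list with the lowest p, besides a short list of inflammatory, clock and lung marker genes. Hspa5 was added after its values had been seen. Alternatives covered background correction, normalization, filters, slide blocks, array weights, the arrays fitted and leaving out each array. Gene symbols were assigned by matching the transcript identifiers of the array design to RefSeq transcripts, and promoter sequences are from RefSeq (GRCm38.p6). Some genes are not reported here.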

Additional observations from a re-analysis of the deposited data

Results flagged for a closer look

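In 292 checks of a gene or list within the 5 arrays of a dose, 24 had 1 array whose gap to the nearest other, as a share of the group's range, passed Dixon's critical value. Chance flags about 1 in 20 groups. No explanation of these values was tested.

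At 18 µg, replicate 13 stood apart in 7 checks. Ccl24 was at 0.54 against -3.03 to -2.02 on the other arrays, Idi1 at 0.49 against -0.06 to 0.09, Nfkbie at 0.76 against -0.22 to -0.06 and Nppa at 2.56 against 0.43 to 0.73. Its CC chemokine score was 0.95 against 0.05 to 0.12, its NF-kB score 0.5 against 0.01 to 0.13 and its alternative macrophage activation score 2.93 against 2.26 to 2.44.

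Replicate 27 at 18 µg stood apart in 7 checks as well. Eif1a was at -0.3 (others -0.13 to -0.07), Ephx1 at 1.6 (1.27 to 1.35), Kif13b at 0.14 (0.07 to 0.08) and Manf at -1.04 (-0.66 to -0.55). Serpina3m was at 0.5 (0.78 to 0.82), Slc39a14 at -1.97 (-1.37 to -1.13) and the interferon score at 1.01 (0.24 to 0.45). Replicate 1 had a mesothelial marker score of 1.17 against 1.47 to 1.58.

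At 54 µg, replicate 32 had Arntl at -2.12 (others -1.31 to -1.0), Kif13b at -0.39 (-0.12 to -0.06), Maff at -0.53 (-0.22 to -0.11), a dendritic cell score of 1.4 (1.05 to 1.11) and a heart muscle score of 1.91 (-0.22 to 0.37). Replicate 28 had Atf3 at -0.67 (-0.24 to -0.10) and Tekt1 at 3.54 (2.80 to 2.93). Replicate 35 had Dhrs3 at 1.48 (1.16 to 1.25) and Lamp3 at 3.07 (3.57 to 3.71).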

How the results depend on the processing

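The dose step of NRCWE-045 had 0 calls in limma under every alternative run except the fit of its 10 arrays alone (3) and the fit of 6 arrays on shared slides (25, added after seeing the data). The 83 calls of 54 µg against control became 207 with processed signals, 0 with median centring, 49 with scale normalization and 31 with Cy5 alone. They became 158 and 273 with slide as a fixed and a random block, 166 without the other materials and 345 with array weights. The count was 11 without both heart-rich NRCWE-045 arrays, with the heart-rich control replicates 2 and 29 kept. It ran from 0 to 221 with 1 array left out. Leaving out control replicates 7 and 29 together gave 1 call for 18 µg against control. The NRCWE-043 step (295) became 33 with processed signals, 6 with median centring, 750 with Cy5 alone, 679 and 699 with slide as a fixed and a random block, and 662 with array weights. The NRCWE-044 step (1664) became 83 with median centring and 2707 with array weights. The difference of the NRCWE-045 from the NRCWE-044 step had 1 call in the deposited table, with the random block and with array weights. The cause was not tested.

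List medians moved too. Under median centring they were 0.43 for CXC chemokines, 0.40 for NF-kB, 0.29 for complement, 0.42 for cholesterol synthesis, 0.52 for the unfolded protein response, 0.48 for heat shock chaperones, 0.14 for club cell and 0.17 for alveolar type 1 markers. On shared slides heat shock chaperones were at 0.45, glucocorticoid-induced genes at 0.13 and T and NK cell markers at -0.14. Some small gene differences changed sign: Cxcl15 to -0.04 with processed signals; Cbr2 to 0.03, Scgb1a1 to 0.19, Hmox1 to 0.18, Sftpc to 0.14, Tns3 to 0.01 and Pmm1 to 0.08 with median centring; Gpr183 to -0.0003, Hmox1 to 0.02 and Sftpc to 0.02 with Cy5 alone. Hmox1 was 0.14 as the mean over probes. Dbp was -0.08 without the heart-rich arrays and -0.97 on shared slides, where Arntl was 0.14. With 1 array left out, Cxcl5 ran from -0.08 to 0.91, Scgb1a1 from -0.23 to 0.01, Hmox1 from -0.18 to 0.07 and Dbp from -0.12 to 0.37. Of the other gene values under alternatives, 2816 kept their direction and side of the threshold, and 16 passed it. The groups share no replicate numbers, so pairing was possible only through the 3 slides that held both doses.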
